A study of Mus musculus with 76 samples.

Results

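Histone genes were examined in 76 single mouse cells called iHPCs, progenitors grown from pluripotent stem cells in which Runx1, Hoxa9 and Hoxa10 were switched on together by inducible expression. All cells belonged to 1 group, with no control cells, and each was sorted as a single cell before its polyA RNA was amplified. The members were the genes of the expression table with a symbol starting with Hist1h, Hist2h, Hist3h, Hist4h, H2af, H3f3 or H1f. The rule took 77 of 15192 listed genes: 66 replication-dependent genes, all named Hist, and 11 replacement genes, named H2af, H3f3 or H1f. Values are TPM, a transcript level scaled for gene length and for the total of each cell. This scaling does not correct for how well mRNAs with and without a polyA tail were captured. The depth behind a value is unknown. No culture or animal of origin is given for a cell, so the cells count as 1 sample, values across cells are descriptions, and no p-value was made from them.

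Replication-dependent histone genes supply the bulk of histone protein while DNA is copied. They lie in clusters, have no introns in most cases, and their mRNAs are known to end in a conserved stem-loop in place of a polyA tail, where the protein SLBP binds. Replacement genes are transcribed through the cell cycle from scattered genes with introns, as a rule, and yield polyadenylated mRNA. Their products exchange with the replicative histones: H2A.Z (H2afz, H2afv) and H3.3 (H3f3a, H3f3b) at active genes and promoters, macroH2A (H2afy, H2afy2) in silent chromatin, H2A.X (H2afx) at DNA breaks, and H1.0 (H1f0) in linker DNA of differentiating or resting cells. H2afx is known to make a stem-loop mRNA as well as a polyadenylated one.

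The stem-loop is shown first, because it marks the class of mRNA that polyA capture meets without a tail. In the GENCODE M21 transcript models (GRCm38), the 16-base histone stem-loop motif was found in 45 of 66 replication-dependent members (68.2%). It was found in 1 of 11 replacement members, H2afx, and in 26 of 21802 other protein-coding genes (0.119%). Histone genes outside the members were not removed from these other genes, so some of the matches can be histone genes. The same letters were found in 26 members, and a form with a GC-richer stem in 7. Models of 11 replication-dependent members hold coding sequence only, where a 3' stem-loop cannot be seen. A model without the motif therefore does not show that the mRNA lacks it. Below, capitals mark the stem-loop, and lower case the flanking bases of the 3' end:
Hist1h2ao: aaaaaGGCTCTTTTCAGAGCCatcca
Hist1h2ap: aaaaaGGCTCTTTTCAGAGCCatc
Hist1h2ag: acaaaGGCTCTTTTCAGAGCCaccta
Hist1h2bg: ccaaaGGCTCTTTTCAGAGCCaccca
Hist1h4d: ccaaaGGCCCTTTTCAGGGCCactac
H2afx: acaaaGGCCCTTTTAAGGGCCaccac
The models of Hist1h2ao, Hist1h2ap and Hist1h2ag stop 31, 3 and 23 bases past the stem-loop. Those of Hist1h2bg, Hist1h4d and H2afx run on for 155, 770 and 822 bases.

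Replacement genes were found in nearly every cell and replication-dependent genes in part of them. Counting a gene as detected at 1 TPM or more, 8 of 11 replacement members and 20 of 66 replication-dependent members were detected in at least 50% of cells, against 23.1% of all listed genes. At 10 TPM the counts were 8 of each class, against 19.8% of all genes. In every cell there were 7 replacement members and no replication-dependent member, against 3.32% of all genes. A cell held a median of 8 replacement members (range 7 to 10) and 24.5 replication-dependent members (range 2 to 46, SD 9.34). Of all 15192 listed genes, 6558 were detected in under 8 cells and 2850 in none. Of the replication-dependent members, 18 of 66 were detected in under 8 cells, among them Hist1h2aa and the pseudogene Hist3h2bb-ps in 0 of 76 cells. By 3 counts this allows a share of up to 3.95% of cells at that level (4.74% by the exact 95% interval); values above 0 but under 1 TPM were listed for Hist1h2aa in 22 cells.

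**Figure D1:**
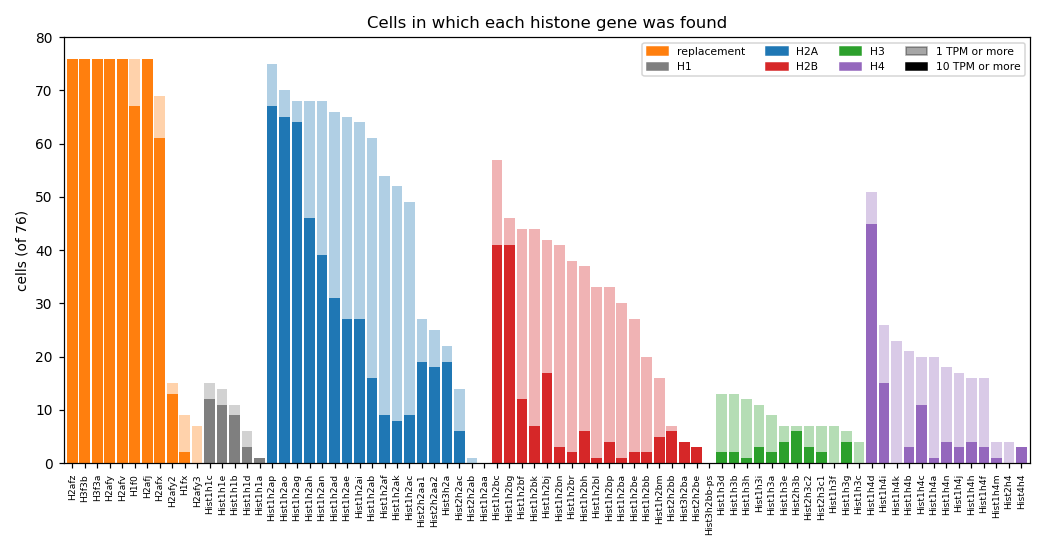
Number of cells (vertical axis, of 76) in which each histone gene was found at 1 TPM or more (pale bar) and 10 TPM or more (dark bar), by class and histone type. Among replication-dependent genes the H2A bars reach 75 cells and the H3 bars end at 13.

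By summed level the difference between the classes was larger. The sums and shares below are of captured polyA RNA, and shares of all histone mRNA were not measured. The replacement members summed to a median of 9593 TPM per cell (range 5576 to 16563, SD 2173). The replication-dependent members summed to 853 TPM (70.3 to 14759, interquartile range 481 to 1425), a median of 8.28% of all histone TPM in a cell (0.82% to 58.7%). Replication-dependent TPM exceeded replacement TPM in 1 of 76 cells (1.32%, exact Clopper-Pearson 95% interval 0.0333 to 7.11%). The sum was at least 1000 TPM in 31 cells, 2000 TPM in 11 and 5000 TPM in 5.

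H2A.Z and H3.3 led the replacement genes. H2afz (chromosome 3, 137864487 to 137866922, GRCm38) had a median of 3011 TPM with a lowest value of 1229 and a highest of 6925, and its paralogue H2afv a median of 325 TPM (62.1 to 1258). H2afz was the higher of the pair in all 76 cells, with a median ratio of 8.25. For H3.3, H3f3b (chromosome 11, 116021912 to 116027962) had a median of 2731 TPM (1008 to 7094) and H3f3a (chromosome 1, 180800832 to 180813943) 1627 TPM (239 to 3482). H3f3b was the higher in 62 cells (81.6%, interval 71 to 89.5%), and the median ratio was 1.80. Levels of the 2 genes of H3.3, which encode the same protein, had a rho of 0.12 across cells. Together H2afz, H3f3a and H3f3b made up a median of 77.3% of replacement TPM.

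Some of these levels share sequence with other genes. Stretches were matched to the transcripts of other genes on either strand. Of the 50-base stretches of H2afz, 60.8% matched annotated transcripts of Tmcc1, which was listed at 0 in every cell. Of those of H3f3a, 21.3% matched an overlapping gene model, Gm17275. How the authors assigned reads that fit several genes is not given in the sources used here.

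The other replacement genes differed in how steady they were. H2afy, which encodes macroH2A1, had a median of 1014 TPM (210 to 3532) and H2afj, an H2A variant, 176 TPM (26.4 to 676). Both were above 10 TPM in all cells. H1f0 was detected in all cells as well, at a median of 210 TPM, but from 1.02 to 2027 TPM, with 67 cells at 10 TPM or more. H2afx (chromosome 9, 44334694 to 44336077) was detected in 69 cells, at a median of 127 TPM and between 0 and 2331 TPM. The SDs of log2(TPM + 1) were 2.97 for H2afx and 2.52 for H1f0, against 0.58 to 0.92 for H2afz, H3f3a, H3f3b, H2afy, H2afj and H2afv. H2afy2, which encodes macroH2A2, was in 15 cells (highest 240 TPM), and its model overlaps Aifm2. H1fx, which encodes H1.10, was in 9 cells, 2 of them at 10 TPM or more, and H2afy3, annotated as a pseudogene, in 7 cells, none at 10 TPM.

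**Figure D2:**
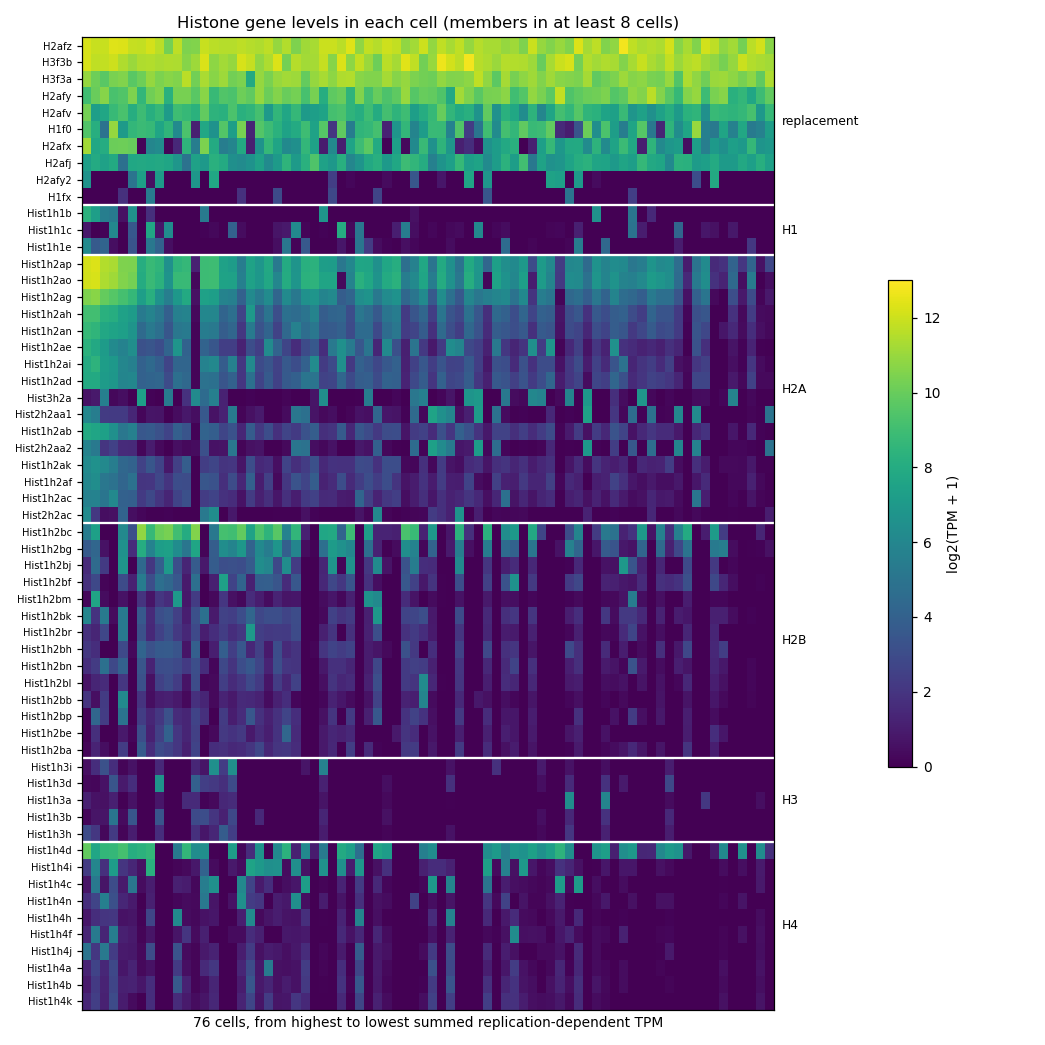
Level of each histone gene detected in at least 8 cells (rows, log2(TPM + 1) as colour) in 76 cells (columns, ordered from the highest to the lowest replication-dependent sum), grouped by type. The 6 steadiest replacement rows (H2afz, H3f3b, H3f3a, H2afy, H2afv and H2afj) are bright across, and the other replacement rows are dark in some or most cells. Most H2A rows fade from left to right, in columns ordered by a sum of which H2A is a median of 54.6%. The H2B rows are brightest in other cells than the H2A rows.

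Among replication-dependent genes, H2A was found most widely, H2B and H4 less and H3 least. A type summed to at least 10 TPM in 71 cells for H2A (93.4%, interval 85.3 to 97.8%), 54 for H4 (71.1%, 59.5 to 80.9%), 53 for H2B (69.7%, 58.1 to 79.8%), 28 for the linker histone H1 (36.8%, 26.1 to 48.7%) and 20 for H3 (26.3%, 16.9 to 37.7%). All 4 core types passed that level together in 14 cells (18.4%, 10.5 to 29%). H2A without H2B was seen in 21 cells, and H2B without H2A in 3. H2A held a median of 54.6% of replication-dependent TPM, H2B 16.5%, H4 11.4% and H3 0%.

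A pair of near-identical genes held most of the H2A level. Hist1h2ap (chromosome 13, 21833026 to 21833507) was detected in 75 cells at a median of 91.6 TPM (interquartile range 34.8 to 233, highest 5027). Hist1h2ao (chromosome 13, 21810465 to 21810944) was detected in 70 cells at a median of 105 TPM (47.7 to 251, highest 4748). They made up a median of 65.1% of replication-dependent H2A. The models share 93.5% of the 50-base stretches of Hist1h2ao, and as printed above their stem-loops and the bases before them are the same. Their levels had a rho of 0.99, and in the 65 cells with both at 10 TPM or more the ratio of Hist1h2ao to Hist1h2ap had a median of 1.09 (0.785 to 2.34). With that much shared sequence, each of the 2 levels is uncertain by itself.

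The remaining H2A genes followed at lower levels. Hist1h2ag was in 68 cells at a median of 37.9 TPM (highest 1652), Hist1h2ah in 68 at 13.3 TPM (highest 544), and Hist1h2an in 68 at 10.2 TPM (highest 414). Hist1h2ad, Hist1h2ae, Hist1h2ai, Hist1h2ab, Hist1h2af and Hist1h2ak were in 52 to 66 cells, with medians of 1.89 to 6.73 TPM. At 10 TPM, Hist1h2ak remained in 8 of its 52 cells and Hist1h2af in 9 of 54.

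Some of them kept a steadier proportion to Hist1h2ap than others. In the 36 cells with at least 100 TPM of Hist1h2ap, the median ratio to it was 0.345 for Hist1h2ag (SD of the log2 ratio 0.33), 0.125 for Hist1h2ah (0.52) and 0.0852 for Hist1h2an (0.53). These 3 genes share 78.9%, 90.7% and 85.8% of their 50-base stretches with other members. Hist1h2ae, which shares 43.2%, had a ratio of 0.0318 with an SD of 1.31. Hist3h2a, which shares 2.0%, had an SD of 4.11. These shares are with any other member and not with Hist1h2ap alone. They cannot show whether sequence shared with Hist1h2ap goes with a steady ratio, which was not tested. Hist2h2aa1 and Hist2h2aa2 share 89.2% and 100% with other members and had SDs of 3.01 and 3.06, Hist1h2ai (84.6%) and Hist1h2af (79.7%) had SDs of 0.86 and 0.91, and Hist1h2ac shares 11.6% and had an SD of 0.60.

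H2B was carried by Hist1h2bc and Hist1h2bg. Hist1h2bc (chromosome 13, 23684199 to 23692908), whose model holds no stem-loop, was in 57 cells, 30 of them at 100 TPM or more. Its median was 36.7 TPM, its interquartile range 0.979 to 246 TPM and its highest value 1841 TPM. Hist1h2bg was in 46 cells (median 14 TPM, highest 261), and across cells the pair had a rho of 0.91. The highest H2B sums, 2249, 1764 and 1694 TPM, were in the cells with title letter H and number 4, letter G and number 10, and letter H and number 9. None of these was among the 3 highest cells for H2A, which held 85.9 to 440 TPM of H2B beside 7921 to 13650 TPM of H2A.

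For H4, 1 gene stood above the rest. Hist1h4d (chromosome 13, 23581598 to 23582735; chosen after its values were seen) was in 51 cells, 45 at 10 TPM or more, with a median of 70.5 TPM and a highest value of 955 TPM. It shares 10.2% of its 50-base stretches with other members. Every other H4 gene was in 26 cells or fewer. None of the 12 H3 genes was in more than 13 cells, and their summed level reached 170 TPM at most, while the replacement H3.3 genes were in all cells. Among the 5 linker genes, Hist1h1c was in 15 cells, Hist1h1e in 14 and Hist1h1b, a linker gene known to be expressed in dividing cells, in 11, with a highest value of 319 TPM.

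Annotated length past the stem-loop did not order the genes by detection. The 22 members with models running at least 100 bases past it were in a median of 16 cells, the 23 with models ending near it in 21, the 11 with coding sequence only in 30, and the 10 others without a stem-loop in 9. At 10 TPM the medians were 4, 5, 3 and 4.5 cells. Over all listed genes the median was 11 cells at 1 TPM and 8 cells at 10 TPM. Between members of unlike type and shared sequence these medians are a description only.

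Replication-dependent genes varied together within a histone type and little between types. Over the 48 members detected in at least 8 cells, the mean Spearman rho (a rank correlation across the 76 cells) was 0.27 for 1128 pairs. Within types it was 0.85 for H3, 0.79 for H2B, 0.72 for H4 and 0.62 for H2A, and 0.27 for the 3 linker genes. Between types it was 0.032 for H2A with H2B, 0.065 for H2B with H3, 0.12 for H2B with H4, 0.19 for H3 with H4, 0.24 for H2A with H4 and 0.28 for H2A with H3. The 10 replacement genes had a mean of 0.022 over 45 pairs, and pairs across the classes 0.052 over 480. All pairs share the same cells, and each value is relative to the total of its cell.

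**Figure D3:**
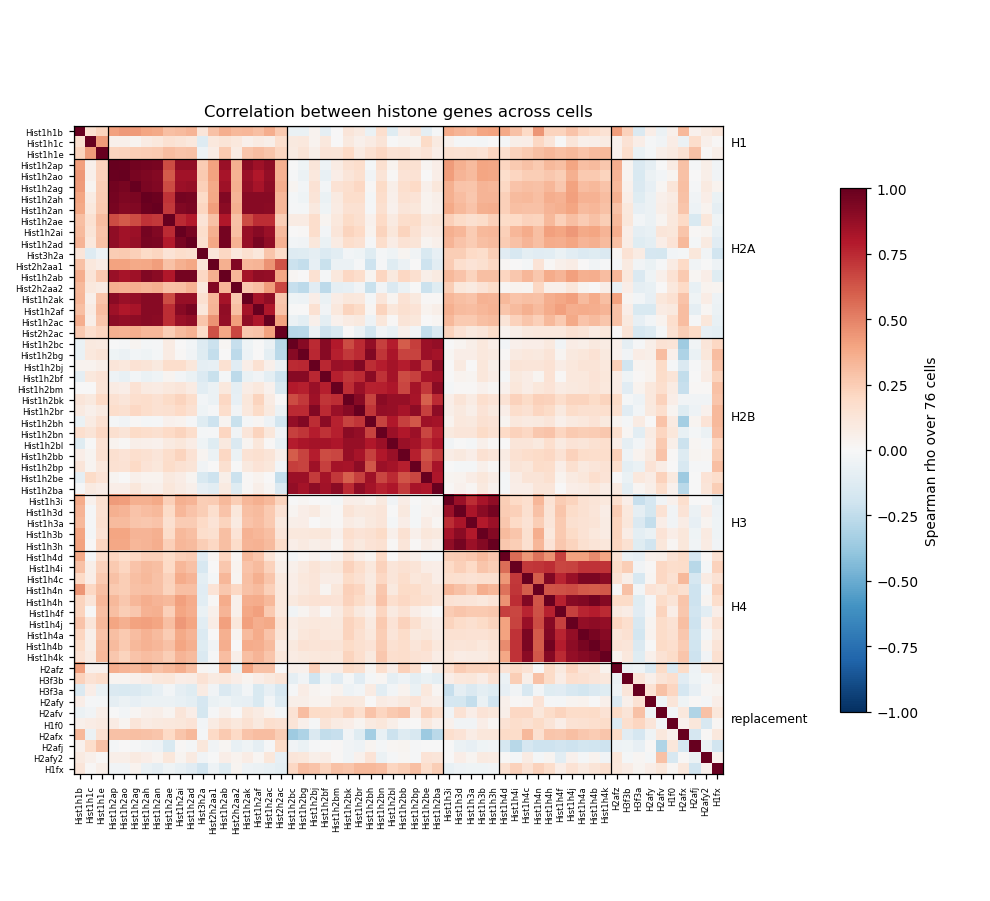
Spearman rho over 76 cells (colour, from -1 to 1) between all pairs of the 58 histone genes detected in at least 8 cells, grouped by type. Dark red squares lie on the diagonal for H2A, H2B, H3 and H4, the block of H2A with H2B is pale (mean 0.032), and the replacement genes show no block.

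Members of a type also share sequence, and 28 of 66 replication-dependent members have at least 50% of their 50-base stretches in another member. Pairs of a member with the member it shares most with had a median rho of 0.95 where at least 50% was shared (11 pairs) and 0.88 where less was (20 pairs). The share is taken over the stretches of the named member, so the same pair can fall in both sets. Hist1h4k shares 71.1% with Hist1h4a, and Hist1h4a shares 38.2% with Hist1h4k. How far shared reads enter the rho values was not tested. H2A and H2B genes also lie side by side in the genome. In 12 places an H2A and an H2B gene start head to head within 500 bases of each other, such as Hist1h2ap with Hist1h2br, 236 bases apart. In the 9 of these pairs with both genes in at least 8 cells, rho ran from -0.067 to 0.18, with a median of 0.12. Hist1h2ac and Hist1h2bc, 251 bases apart, had a rho of -0.059 and were both found in 36 cells.

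Promoter letters differ between the types. From RefSeq (GRCm38.p6), 68 members had a promoter window of 250 bases before to 50 after the gene start: 59 replication-dependent and 9 replacement members. Read on both strands, CCAAT was in 50 of 59 replication-dependent windows (84.7%), 6 of 9 replacement windows (66.7%) and 41.1% of all 27025 windows. It was in all H1, H2A, H2B and H3 windows and in 3 of 12 H4 windows. TATAAA was in 59.3% of replication-dependent windows, 1 of 9 replacement windows and 15.7% of all. The octamer ATTTGCAT, known from H2B promoters as a site of Oct1, was in 7 of 17 H2A and 7 of 15 H2B windows, in none of the H1, H3 and H4 windows, and in 1.97% of all. Windows of H2A and H2B genes that start head to head overlap, so the same motif can be counted for both genes. A match of letters does not show that a factor binds.

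The 100 bases before the RefSeq start of 6 members are given with these motifs in capitals, written 5' to 3' on the strand of the gene. Hist1h2bc and Hist1h2ap were not matched. The RefSeq starts are not always those of the GENCODE models: for H3f3a and H3f3b they lie inside the GENCODE spans given above, and for Hist1h2ao and Hist1h4d they lie before them. Those of Hist1h2bg (chr13:23571300-23571399, plus strand) hold the octamer and TATAAA close together, and those of Hist1h4d (chr13:23581468-23581567, plus strand) a CCAAT in reverse and TATAAA. Hist1h2ao (chr13:21810267-21810366, plus strand) and H2afz (chr3:137864387-137864486, plus strand) hold CCAAT on both strands and no TATAAA. The H3.3 genes differ: H3f3b (chr11:116024505-116024604, minus strand) holds CCAAT, the octamer in reverse and TATAAA, and H3f3a (chr1:180813606-180813705, minus strand) holds only a CCAAT in reverse:
Hist1h2bg: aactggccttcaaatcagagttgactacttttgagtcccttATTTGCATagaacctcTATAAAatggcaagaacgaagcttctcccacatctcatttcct
Hist1h4d: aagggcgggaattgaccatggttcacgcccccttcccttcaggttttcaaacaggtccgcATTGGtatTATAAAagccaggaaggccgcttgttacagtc
Hist1h2ao: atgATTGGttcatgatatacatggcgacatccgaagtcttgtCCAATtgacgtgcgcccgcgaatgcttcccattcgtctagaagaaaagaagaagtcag
H2afz: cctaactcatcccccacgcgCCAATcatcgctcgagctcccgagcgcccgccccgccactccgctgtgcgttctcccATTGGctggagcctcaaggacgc
H3f3b: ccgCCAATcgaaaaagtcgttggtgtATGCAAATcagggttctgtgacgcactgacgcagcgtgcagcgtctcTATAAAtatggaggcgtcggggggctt
H3f3a: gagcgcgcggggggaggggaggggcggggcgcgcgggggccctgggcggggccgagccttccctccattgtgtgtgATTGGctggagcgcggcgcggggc

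The relation to the cell cycle was read from 2 scores per cell, each a mean of log2(TPM + 1). The S phase score used 30 genes of DNA replication, such as Mcm6, Pcna and Fen1, with no histone gene among them, and the G2 and M phase score used 28 genes of mitosis, such as Cdk1 and Cdc20. The scores had a rho of 0.46 with each other, and the S phase score had a rho of 0.48 with the number of genes detected. The replication-dependent sum had a rho of -0.060 with the S phase score (Pearson r 0.053) and 0.33 with the G2 and M phase score (r 0.49). For the replacement sum the values were -0.025 (r 0.024) and 0.26 (r 0.36). Titles carry a letter and a number, and the relation of the replication-dependent sum to the G2 and M phase score was 0.61 in the 37 cells with title numbers 2 to 6 and 0.029 in the 39 cells with numbers 7 to 11.

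**Figure D4:**
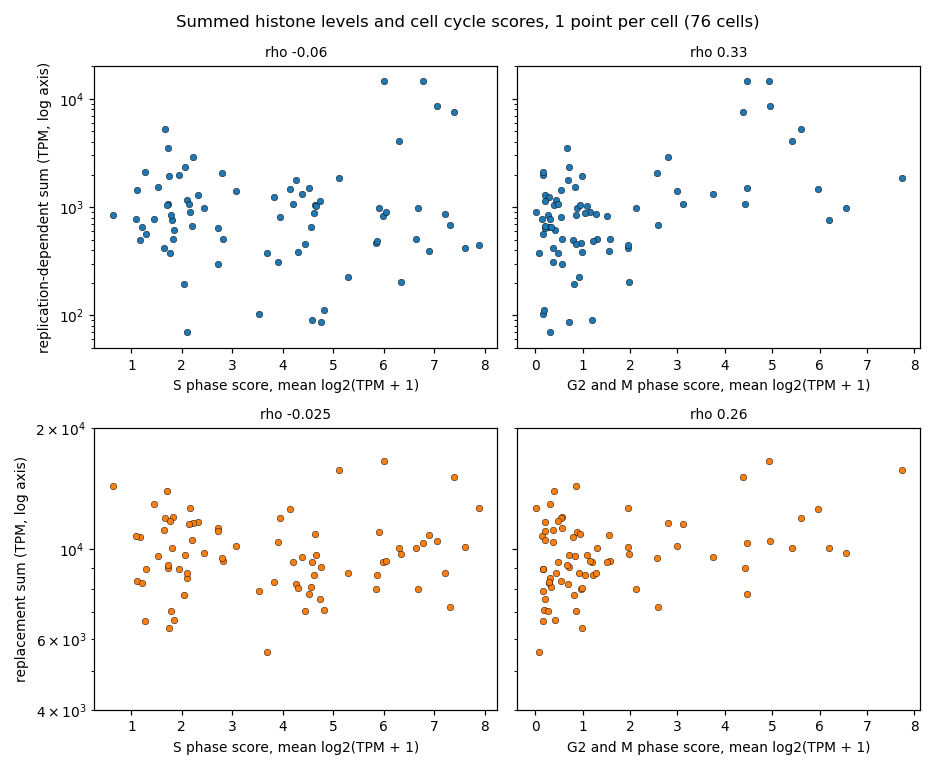
Summed TPM of replication-dependent (top) and replacement (bottom) histone genes (log axes) against the S phase score (left) and the G2 and M phase score (right), 1 point per cell. The 4 highest replication-dependent cells lie at high S phase scores, and other cells at such scores go down to 204 TPM.

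By type, the relation to the S phase score ran from positive for linker genes to negative for H2B. The rho with the S phase score was 0.34 for the H1 sum, 0.22 for H3, 0.12 for H4, 0.013 for H2A and -0.16 for H2B. The H1 sum had a median of 0.41 TPM per cell and a rho of 0.33 with the number of genes detected. Of the single genes, 15 of 16 H2A members had a rho above 0, and 1 of 14 H2B members did, against 64.5% of the 8634 genes detected in at least 8 cells. The highest value of an H2A member was 0.16. Members of a type share sequence and vary together (mean rho 0.62 within H2A and 0.79 within H2B), so they are not separate observations.

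Single histone genes were also read against the S phase score, beside all genes. A rho of at least 0.3 was reached by 1 of 48 replication-dependent and 2 of 10 replacement members, against 7.44% of the 8634 genes detected in at least 8 cells. A rho of -0.3 or less was found for 0 and 1 members, against 1.41% of genes. The median rho was 0.10 for replication-dependent members, -0.076 for replacement members and 0.056 for all genes. With the G2 and M phase score, 13 of 48 and 3 of 10 members reached 0.3, against 4.55% of genes, and none was at -0.3 or less, against 0.382%. The 13 were 6 H2A, 5 H3, 1 H1 and 1 H4 gene. Sequence overlaps within H2A and H3, so that they are not 13 separate observations. The 5 H3 genes were detected in 9 to 13 cells, and at 10 TPM or more in 1 to 3. Their rho values therefore rest on few cells, most of them at low levels.

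Hist1h1b was the replication-dependent gene at 0.3 or more, with a rho of 0.36 with the S phase score and 0.51 with the G2 and M phase score. After it came Hist1h1e (0.24), Hist1h4f (0.18), Hist1h3a (0.17) and Hist1h3i (0.17). The lowest values belonged to H2B genes: Hist1h2bg (-0.28), Hist1h2bh (-0.26), Hist1h2be (-0.24), Hist1h2bc (-0.24) and Hist1h2bf (-0.21). Each of these is short of 0.3 in size.

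Among replacement genes, H2afx (rho 0.48) and H2afz (0.38) were higher in cells with higher S phase scores, and H3f3a was lower at higher scores (-0.35). The other values were 0.14 for H2afj, 0.013 for H2afy, -0.050 for H1fx, -0.10 for H2afy2, -0.14 for H2afv, -0.22 for H3f3b and -0.24 for H1f0. With the G2 and M phase score, H2afz had a rho of 0.57, H2afx 0.38 and H1fx 0.33. The value of H2afz with the S phase score was 0.049 in title numbers 2 to 6 and 0.64 in numbers 7 to 11. That of H2afx was 0.37 and 0.59. With the number of genes detected regressed out, rho was 0.35 for H2afx, 0.24 for Hist1h1b and -0.25 for H3f3a.

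**Figure D5:**
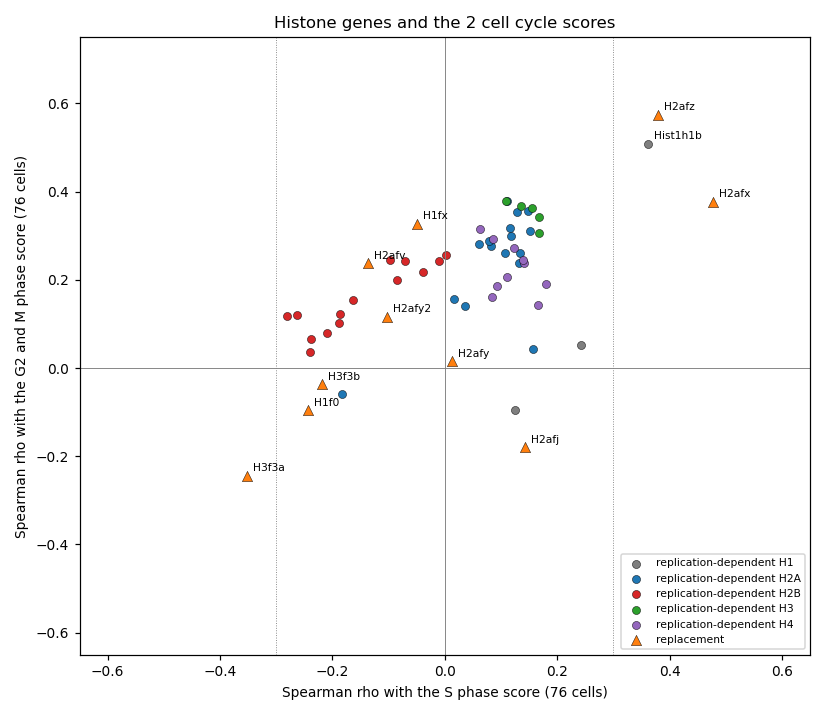
Spearman rho over 76 cells with the S phase score (horizontal) and with the G2 and M phase score (vertical) for the 58 histone genes detected in at least 8 cells; dotted lines mark -0.3 and 0.3. H2afz, H2afx and Hist1h1b lie at the upper right, the H2B genes left of the other replication-dependent genes except the H2A gene Hist3h2a (-0.18), and H3f3a at the lower left.

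The S phase score had its widest gap between 5.28 and 5.84, with 18 cells above it. This split and the single genes given for it were chosen after the values were seen. Those genes were among the highest or lowest of their class by rho with this same score, so their values across the gap are no separate result. The replication-dependent sum had a median of 844 TPM in those 18 cells (204 to 14759) and 869 TPM in the 58 others (70.3 to 5289), so the ranges overlap and the medians lie close together. A sum of at least 2000 TPM was found in 5 of the 18 and 6 of the 58. Hist1h1b was at 10 TPM or more in 7 of the 18 and 2 of the 58, and Hist1h2bc in 5 of the 18 and 36 of the 58. The median of H2afz was 3693 TPM above the gap and 2615 TPM below it, that of H2afx 241 and 99.2 TPM, and that of H3f3a 1376 and 1760 TPM. All these ranges overlap. The 18 cells also had more genes detected, a median of 4467.5 against 4044.5.

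A few cells held very high replication-dependent levels, almost all of it H2A. The cell with title letter G and number 9 had 14759 TPM, 12937 of them from H2A, and ranked 14 of 76 by the S phase score and 8 by the G2 and M phase score. In the cell with letter A and number 8 the sum was 14744 TPM (ranks 8 and 10), in that with letter G and number 7 it was 8612 TPM (ranks 6 and 7), and in that with letter A and number 3 it was 7589 TPM (ranks 3 and 12). These 4 cells stood high on both scores. The next, with letter F and number 5, had 5289 TPM, with rank 5 for G2 and M phase and rank 66 for S phase. In the lowest 6 cells the sum was 70.3 to 195 TPM, and replacement genes there still summed to 7081 to 9290 TPM. Cells that share a title letter with one of the 2 highest cells had a median of 775 TPM (16 cells), cells that share a number 929 TPM (14 cells), and cells that share neither 853 TPM (46 cells).

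Genes that process histone mRNA were followed beside the histones. Slbp, which encodes the stem-loop binding protein, was in all 76 cells at a median of 387 TPM (highest 1341), with a rho of 0.58 with the S phase score and -0.14 with the replication-dependent sum. Lsm10, a subunit of the U7 snRNP that guides 3' cleavage, was in 67 cells (median 205 TPM). Cpsf3, the endonuclease of that cleavage, was in 67 cells (133 TPM) and Ncbp2, a cap-binding subunit, in 53 (25 TPM). Of 15 genes of this list of 16 detected in at least 8 cells, 3 had a rho of at least 0.3 with the S phase score, against 7.44% of all genes.

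Histone chaperones, which carry histones to DNA, were read in the same way. Of 23 listed, 9 had a rho of at least 0.3 with the S phase score and none of -0.3 or less, against 7.44% and 1.41% of all genes; 1 of the 9, Mcm2, is itself part of that score. Npm1, a nucleolar chaperone, was in 76 cells at a median of 1311 TPM (rho 0.52), and Rbbp7, a subunit of several histone-binding complexes, in 76 at 448 TPM (0.53). Nap1l4, an H2A and H2B chaperone, was in 72 cells at 251 TPM (0.049), and Asf1a, an H3 and H4 chaperone, in 70 at 144 TPM (0.11). Its paralogue Asf1b (chosen after values were seen) was in 50 cells and had a rho of 0.54. With the replication-dependent sum, rho was -0.025 for Npm1, 0.030 for Rbbp7, -0.10 for Nap1l4 and 0.10 for Asf1a.

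Of 6687 genes detected in at least 15 cells, those most like the replication-dependent sum were Shcbp1 (rho 0.47), Ncln (0.47), Hmgb1-rs17 (0.45), Traip (0.43), Cenpa (0.42), which encodes the centromeric H3 variant, Atp5b (0.42), Hmgb1 (0.42) and Tubb4b (0.39). For the replacement sum they were Cdkn1b (0.47), Mrpl44 (0.42), Prkca (0.42), Hmgb1 (0.40), Isg15 (0.40), Ssbp2 (0.38), Ddit3 (0.38) and Dtd2 (0.37). Each is the top of many values over 76 cells, and Shcbp1, Traip, Ncln, Prkca and Isg15 were in 16 to 23 cells.

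The cells carried blood genes, as their label says. All 9 listed blood markers were in at least 50% of cells, against 23.1% of all listed genes, with 7 to 9 per cell and a summed level of 4982 to 15507 TPM. The pluripotency genes Pou5f1, Esrrb and Tdgf1, the stromal genes Col1a1 and Col1a2, the endothelial genes Kdr and Tek and the erythroid genes Hba-a1, Epor and Gata1 were each in 0 of 76 cells. Other genes of these lists were detected: the endothelial genes Pecam1 in 24 cells, Plvap in 18, Emcn in 7 and Esam in 4, and the stromal genes Pdgfrb in 22 and Sparc in 2. Of the erythroid genes, Hba-a2 was in 5 cells (highest 333 TPM) and Klf1 and Alas2 in 1 each, and Dppa5a of the pluripotency genes was in 1. The part of such cells in the histone levels was not tested. Summed levels per cell were 0 to 49.2 TPM for 4 pluripotency, 0 to 167 TPM for 4 stromal and 0 to 430 TPM for 6 endothelial markers. Genes detected per cell ran from 2465 to 5992 (median 4182.5).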

How the data were processed

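The authors deposited 1 table of TPM for 76 single cells, with 15192 genes and each column summing to 1000000. Per the labels' protocols, the TruePrep DNA Library Prep Kit V2 made libraries from cDNA of the Discover-sc WTA Kit V2. Per the submitters' processing notes, HISAT2 2.1.0, StringTie 1.3.4, SAMtools 0.1.19 and bcl2fastq were used with build mm10; neither the annotation nor the treatment of reads fitting several genes is stated there. TPM keeps no depth, and a 0 can be a failed capture.

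From the deposited TPM, detection (1 TPM or more), sums per cell and correlations of log2(TPM + 1) were computed in Python 3.11.15 with pandas 2.3.3 and SciPy 1.17.1, over all genes detected in at least 8 cells. A rho of 0.3 or more served as a fixed mark, not as a test. Intervals and upper limits describe counting error over cells alone. Positions, transcript models and shared 50-base stretches came from GENCODE M21 (GRCm38), and all 77 members matched. A stretch counted as shared if it matched another gene's transcript on either strand. Promoters came from RefSeq, matched by symbol or by a synonym held by 1 gene only. A further 14 GENCODE symbols fit the naming rule and were not analysed here.

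The members and the gene lists were chosen with earlier results of these data known. Named genes were all replacement members, the 12 replication-dependent members in most cells, the 5 with the highest and the 5 with the lowest rho with the S phase score, the 8 genes most like each sum and the 4 of each further list in most cells. Other names were chosen after values were seen. Of the lists, Srcap, Spi1, Nanog, Sox2, Zfp42, Col3a1, Dcn, Pdgfra and Cdh5 were not analysed here, and 1 erythroid marker is not reported here. The code was tested on simulated data. No doublet caller was run, since the labels give each library as 1 sorted cell.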

Additional observations from a re-analysis of the deposited data

How the results depend on the processing

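Of 132 values under other settings, 97 stayed within the limit set for their kind (a change under 0.1 for rho, under 1.5 times for counts and shares) and 35 moved. The count of replication-dependent members per cell fell to a median of 13 at 5 TPM and 9 at 10 TPM, while that of replacement members stayed within the limit. The replication-dependent share was 14.7% without H3f3a and H3f3b. The rho of the replication-dependent sum with the S phase score was 0.053 by Pearson correlation, 0.054 with a pseudocount of 0.1 as well, and 0.071 for mean log2 levels. With the G2 and M phase score it was 0.61 in title numbers 2 to 6, 0.029 in numbers 7 to 11, and 0.49 and 0.50 by Pearson correlation. For the replacement sum, rho with the S phase score was -0.26 and 0.19 in the title numbers, 0.11 in the 65 cells with at least 3500 genes and 0.10 for mean log2 levels. With the G2 and M phase score it was 0.43 and 0.086 in the title numbers, 0.43 in cells with at least 3500 genes and 0.36 and 0.36 by Pearson correlation. The count of replication-dependent members at a rho of 0.3 or more with the S phase score was 0 in title numbers 2 to 6, 0 after regression on genes detected and 0 with a minimum of 20 cells. The replacement count was 1 in title numbers 2 to 6, and the mean pairwise rho of replication-dependent members was 0.39 there.

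Settings added after seeing the data were leaving out the 2 highest cells, which moved no value past its limit, and taking only replication-dependent members that share under 50% of their 50-base stretches. With these the share was 3.67%, and the replication-dependent sum had a rho of -0.17 with the S phase score and 0.23 with the G2 and M phase score. The cause of these moves was not tested. No paired analysis was possible because all cells form 1 group. Unknown depth and a capture of polyA RNA limit what a 0 or a low level of a replication-dependent gene can show. Values from title numbers 2 to 6 and 7 to 11 cannot be told apart from other differences between those cells.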
